A study of Gallus gallus with 16 samples.

Results

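The genes described here are the 150 whose transcripts stood highest in the hypothalamus of laying hens relative to the pituitary gland and the ovary. They were taken from a table of 17108 genes, of which 8730 were above 0 in both hypothalamus libraries used for the choice and reached a mean of at least 5 FPKM there. FPKM counts sequenced fragments relative to transcript length and to the size of the library. For each of the 8730 genes the mean FPKM of a tissue was written as log2(mean + 1). The gap is the hypothalamus value minus the higher of the pituitary and ovary values, and the 150 largest gaps were kept. The genes were thus chosen by their FPKM in HEP 3 and LEP 4 hypothalami and in all pituitary and ovary libraries, so their excess over pituitary and ovary is a description and was not tested.

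The birds were female Luhua chickens, a Chinese local breed, at 300 days of age, with feed and water freely available. High egg production (HEP) hens came from the birds with the most eggs of a flock, and low egg production (LEP) hens from those with the fewest. Hens 1, 2 and 3 were HEP and hens 4, 5 and 6 LEP. The hypothalamus was represented by HEP hens 1 and 3 and LEP hens 4, 5 and 6, the pituitary gland by 3 HEP and 3 LEP hens, and the ovary by HEP hens 1 and 3 and LEP hens 4, 5 and 6.

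The hypothalamus is the part of the brain that controls the pituitary. Its neurosecretory cells release small peptides, gonadotropin-releasing hormone among them, into vessels that lead to the anterior pituitary, which answers with the hormones that drive follicle growth and ovulation. The tissue is a mixture of neurons and glia, and in birds it also makes a gonadotropin-inhibiting peptide and takes part in the response to day length. The files give Ensembl identifiers without symbols, and 0 of the 17108 identifiers were found in the reference table used here. The genes are therefore called by identifier, no role is given to any of them, and the tissue labels could not be checked against known markers.

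Libraries did not all list the same number of genes. HEP 3 and LEP 4 hypothalami, the 2 used for the choice, listed 13737 and 13807 genes above 0 FPKM, and the 11 pituitary and ovary libraries 13713 to 14356. HEP 1, LEP 5 and LEP 6 hypothalami listed 6186, 6843 and 6465. These 3 libraries are shown apart throughout. The 3 genes with the highest summed FPKM took 47.3% to 75.1% of a library's total, and none of them is among the 150. The number of reads behind each value is unknown, so no counting error can be given.

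The 150 genes spanned a wide range of levels. Their mean in HEP 3 and LEP 4 hypothalami ran from 10.4 to 14195 FPKM, with a median of 123 FPKM and quartiles of 49.0 and 266 FPKM. At least 100 FPKM was reached by 84 genes and at least 500 FPKM by 21. The same genes had a median of 1.24 FPKM in the pituitary and 2.11 FPKM in the ovary. In bulk tissue, fewer cells of a type and less RNA per cell cannot be told apart. The median gap was 4.37 on the log2 scale, with quartiles of 3.60 and 5.44. A gap of at least 5 was seen in 49 genes, of at least 7 in 14 and of at least 9 in 5.

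**Figure D1:**
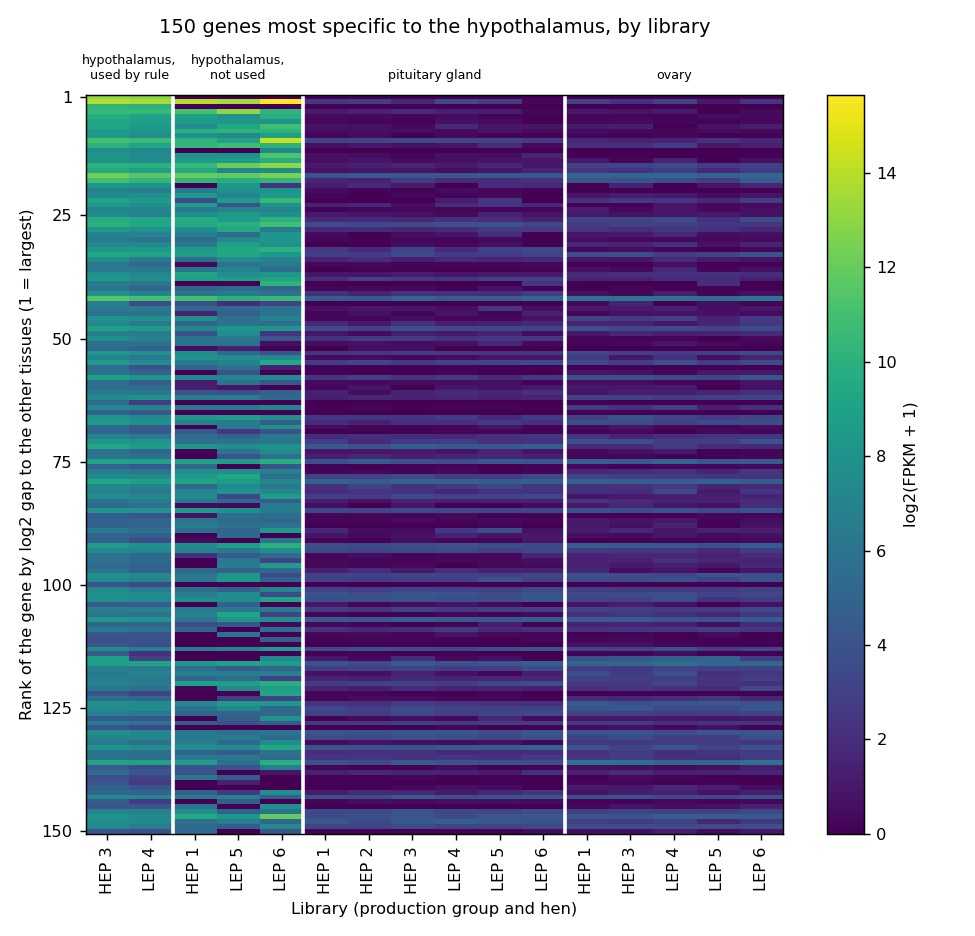
Each row is 1 of the 150 genes, ordered by gap from the largest at the top, and each column is a library, with colour giving log2(FPKM + 1). The hypothalamus columns are bright and the 11 pituitary and ovary columns dark, while 124 to 132 of the 150 genes are above 0 in the 3 hypothalamus libraries not used for the choice.

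The border of the set fell among close values. ENSGALG00000005413 was the last gene inside, with 15.7 FPKM in the hypothalamus, 0.0997 FPKM in the pituitary and 0.731 FPKM in the ovary (gap 3.27). ENSGALG00000010645 was the nearest gene outside, with 74.7, 6.88 and 4.85 FPKM in the same tissues (gap 3.26). The gaps run on without a break there, so the number of 150 sets the border.

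A few genes carried most of the transcripts of the set. In HEP 3 and LEP 4 hypothalami together, a single gene held 23.9% of the summed FPKM of the 150 and the 10 highest held 61.1%. The 150 genes made up 2.64% of all FPKM in HEP 3 and 2.76% in LEP 4. They made up 3.41%, 1.75% and 3.22% in HEP 1, LEP 5 and LEP 6 hypothalami. In the 6 pituitaries this share was between 0.0229% and 0.0403%, and in the 5 ovaries between 0.0241% and 0.0637%.

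ENSGALG00000018385 had the largest gap of all, 12.89. It was listed at 8329 FPKM in the HEP 3 hypothalamus and at 6853 FPKM in the LEP 4 hypothalamus. It was listed at 0 in the other 14 libraries, the hypothalami of HEP 1, LEP 5 and LEP 6 among them. An exact 0 in such a table can be a failed estimate. The gap of this gene is set by its hypothalamus level and by the 1 added to each mean, and is not read as a fold.

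ENSGALG00000000112 had the next gap, 11.20, and the highest level. It stood at 15979 and 15392 FPKM in HEP 1 and HEP 3 hypothalami, and at 12998, 11639 and 51780 FPKM in those of LEP 4, LEP 5 and LEP 6. The 4 libraries other than LEP 6 lie close together, and HEP and LEP overlap. In the pituitary it was at 4.46, 5.57 and 2.39 FPKM in HEP 1, HEP 2 and HEP 3, and at 10.2, 6.64 and 0.178 FPKM in LEP 4, LEP 5 and LEP 6. The ovaries of HEP 1 and HEP 3 had 8.15 and 3.62 FPKM, and those of LEP 4, LEP 5 and LEP 6 had 8.08, 1.09 and 4.28 FPKM. The LEP 6 hen thus had both the highest hypothalamus value and the lowest pituitary value of this gene.

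ENSGALG00000003457, chosen for mention after its values were seen, ranked 17 by gap and was the third highest by level. It stood at 4239 and 4941 FPKM in HEP 1 and HEP 3 hypothalami and at 3274, 3691 and 5729 FPKM in those of LEP 4, LEP 5 and LEP 6. The libraries that list few genes lie within the range of the others or just above it. The gene was not low elsewhere, since the 6 pituitaries had 15.4 to 20.4 FPKM and the 5 ovaries 32.9 to 39.8 FPKM.

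**Figure D2:**
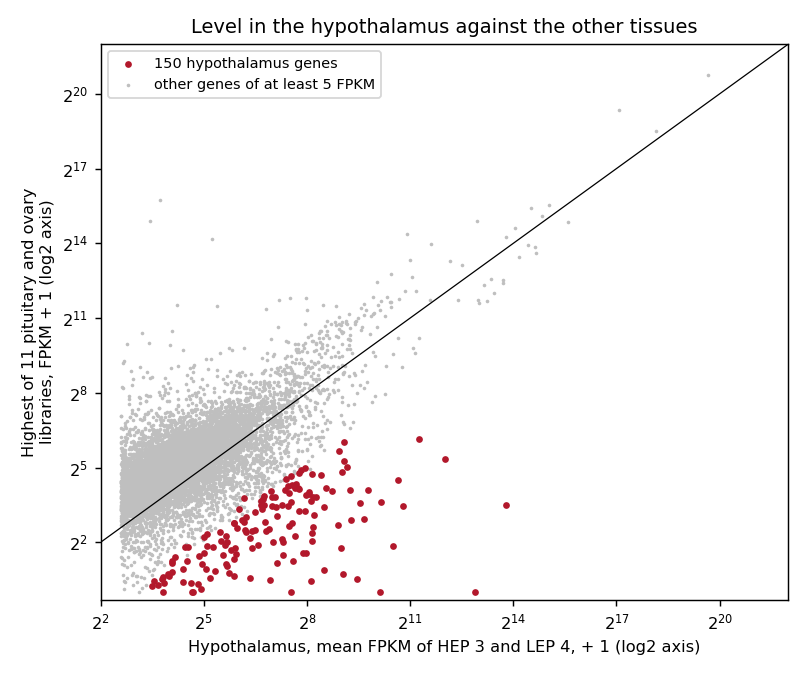
The horizontal axis is the mean FPKM of HEP 3 and LEP 4 hypothalami plus 1 and the vertical axis the highest of 11 pituitary and ovary libraries plus 1, both on log2 axes, with a line where the axes are equal. The 150 genes (red) lie far below the line at every level, and 6 of them lie at the bottom because they are listed at 0 in each of the 11 libraries.

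The set held genes with almost no signal outside the hypothalamus beside genes with a moderate one. No pituitary or ovary library exceeded 1 FPKM in 31 of the 150 genes, and none exceeded 5 FPKM in 79. Means of 10 FPKM or more were found in the pituitary for 20 genes and in the ovary for 26. In 149 of the 150 genes both HEP 3 and LEP 4 hypothalami lay above all 11 pituitary and ovary libraries. This was so for 18.2% of the 8730 genes, and since the rule used this contrast, nothing is read from the count.

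A group of 6 genes was listed at 0 in all 11 pituitary and ovary libraries. In HEP 3 and LEP 4 hypothalami their means ran from 12.98 FPKM to the 7591 FPKM of ENSGALG00000018385. Of these 6, 5 were also at 0 in HEP 1, LEP 5 and LEP 6 hypothalami, so that 2 libraries of 16 carry them. Among the 8730 genes, 6 in all showed that pattern, those 5 included. The sixth gene of the group was at 144 FPKM in LEP 6 and at 0 in HEP 1 and LEP 5.

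Of pituitary and ovary, the ovary more often had the higher mean, as it did among the 8730 genes. The ovary mean was above the pituitary mean in 85 genes and below it in 59, and 6 genes were at 0 in both. Most of these differences were small, with 110 genes within 1 on the log2(mean + 1) scale. The ovary was at least 1 above the pituitary in 30 genes and the pituitary at least 1 above the ovary in 10. Among the 8730 genes, the pituitary was the higher of the pair in 35.9%.

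The 2 extremes of that order were chosen after their values were seen. ENSGALG00000001172 was highest on the pituitary side, with a mean of 6.12 FPKM in the pituitary and 0.252 FPKM in the ovary. ENSGALG00000015143 was highest on the ovary side, with 0.892 FPKM in the pituitary and 19.6 FPKM in the ovary. ENSGALG00000015143 is also the single one of the 150 in which HEP 3 and LEP 4 hypothalami do not both lie above all pituitary and ovary libraries. It stood at 0 and 485 FPKM in HEP 1 and HEP 3 hypothalami and at 7.15, 0 and 167 FPKM in those of LEP 4, LEP 5 and LEP 6. HEP 1 and HEP 3 ovaries had 13.8 and 19.1 FPKM of it, and LEP 4, LEP 5 and LEP 6 ovaries 28.6, 30.4 and 5.93 FPKM. Of the libraries the rule used, the HEP 3 hypothalamus alone was high, and LEP 4 lay below the ovary mean.

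Within pituitary and ovary the 150 genes varied somewhat more between libraries than the wider set. For the 79 genes of at least 1 FPKM in the pituitary the median SD over the 6 libraries was 0.30 on the log2(FPKM + 1) scale, against 0.22 for the 8525 of the 8730 genes at that level. In the ovary it was 0.35 for 89 genes, against 0.21 for 8527. The ovary of LEP 5 held the single lowest value in 68 of 135 genes with one, which is 50.4%, against 26.9% in the wider set. The pituitary of LEP 6 held the highest value in 23.4% of the genes, against 52.8% in the wider set. These SDs and shares compare genes of different level, whose part in them was not tested. The pituitary and ovary values also entered the choice, which favours genes low there against the hypothalamus. The differences from the wider set are therefore not read as a trait of the 150 genes.

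HEP 3 and LEP 4 hypothalami gave similar levels. The HEP 3 value was above the LEP 4 value in 129 genes (86.0%) and below it in 21, with a median difference of 0.46 on the log2(FPKM + 1) scale and quartiles of 0.21 and 0.68. The 8730 genes gave nearly the same, with 88.7% higher in HEP 3 and a median of 0.46. All listed genes summed to 2550927 FPKM in HEP 3 and to 1871201 FPKM in LEP 4. The part of these totals in the difference was not tested. A difference above 1 was found in 15 genes (10%), all higher in HEP 3, against 7.74% of the 8730. The largest belonged to ENSGALG00000015143, with 485 FPKM in HEP 3 and 7.15 FPKM in LEP 4. The next was that of ENSGALG00000012671, chosen for mention after its values were seen, with 109 FPKM in HEP 3 and 10.98 FPKM in LEP 4. With 1 library on each side these differences have no replicate check.

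The 3 hypothalamus libraries that did not enter the choice give values that the rule did not use. The pituitary and ovary libraries of the same hens did enter it. Of the 150 genes, 124 were above 0 in HEP 1 (82.7%), 130 in LEP 5 (86.7%) and 132 in LEP 6 (88.0%). The 8730 genes were above 0 in 64.1%, 68.8% and 66.5% of cases in the same libraries. All 3 libraries listed 114 of the 150 genes (76.0%) above 0, against 42.2% of the 8730, and 9 of the 150 were at 0 in all 3.

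The share of genes above 0 in all 3 libraries was lowest between 5 and 20 FPKM and rose up to the range of 100 to 500 FPKM. Between 100 and 500 FPKM, 60 of 63 genes of the set (95.2%) were above 0 in all 3 libraries, against 89.2% of 602 other genes. Between 20 and 100 FPKM this was so for 34 of 53 genes (64.2%), against 60.4% of 3312 other genes. At 500 FPKM or more it was so for 19 of 21 (90.5%), against 93.0% of 115 others, and between 5 and 20 FPKM for 1 of 13 (7.69%), against 20.4% of 4551 others. Within a range of level the set was thus close to other genes, apart from the lowest range, which holds only 13 of its genes.

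Levels in these libraries scattered widely around those of HEP 3 and LEP 4. Over all 150 genes, the median difference from the mean of HEP 3 and LEP 4, on the log2(FPKM + 1) scale, was -0.92 in HEP 1, -0.63 in LEP 5 and -0.38 in LEP 6. The 8730 genes gave -1.44, -1.21 and -1.49 in the same libraries. Over the genes listed above 0 alone the medians were -0.55, -0.25 and -0.13 for the set, against -0.17, -0.19 and -0.05 for the wider set. Of these listed genes 68 of 124 in HEP 1 (54.8%) lay within 1 of that mean, 71 of 130 in LEP 5 (54.6%) and 58 of 132 in LEP 6 (43.9%), against 52.3%, 46.0% and 38.7% of the wider set. In HEP 1, 46 of the 124 (37.1%) lay more than 1 below it, against 28.5% of the wider set. Over all 5 hypothalamus libraries 45 of the 150 genes (30.0%) stayed within a range of 2 on the log2 scale, against 13.8% of the 8730. All these comparisons set genes of different level side by side. Between 5 and 20 FPKM lay 13 genes of the set and 4551 others, and the part of level was not tested.

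**Figure D3:**
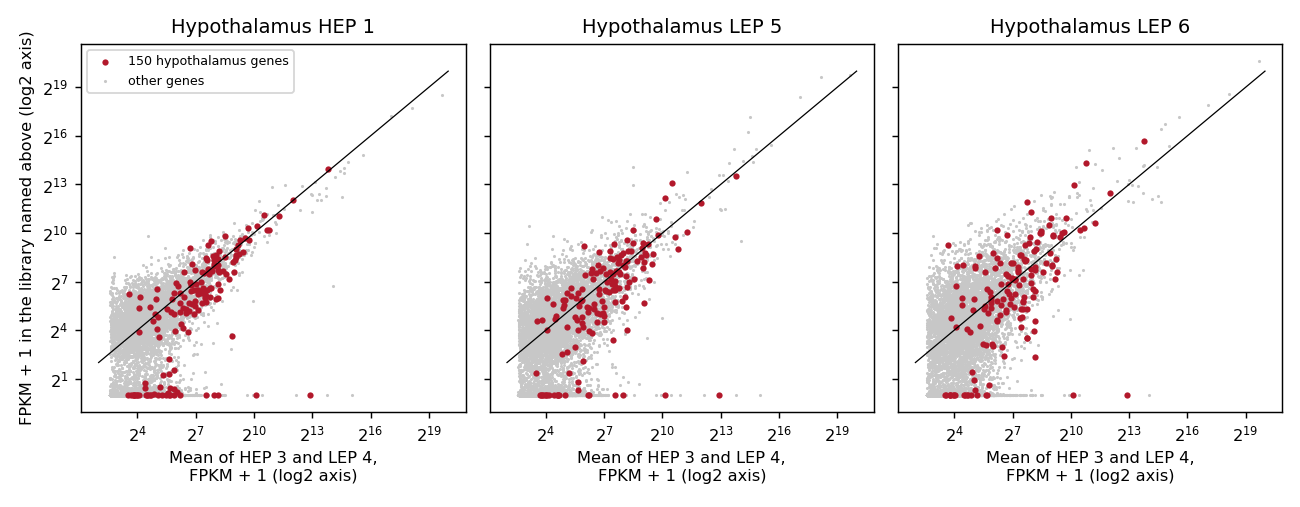
Each panel sets the FPKM plus 1 in HEP 1, LEP 5 or LEP 6 hypothalamus (vertical) against the mean of HEP 3 and LEP 4 (horizontal), on log2 axes, with a line where the axes are equal. The 150 genes (red) scatter on both sides of the line. Of those listed above 0 in HEP 1, 46 lie more than 1 below the line on the log2 scale and 10 more than 1 above. These counts are 41 and 18 in LEP 5, and 39 and 35 in LEP 6. Genes along the bottom are listed at 0, 26 in HEP 1, 20 in LEP 5 and 18 in LEP 6.

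These libraries can be set against pituitary and ovary, although the pituitary and ovary values themselves entered the choice. HEP 1 lay above all 11 pituitary and ovary libraries in 117 of the 150 genes (78.0%), and LEP 5 and LEP 6 each in 126 (84.0%). Among the 8730 genes these shares were 22.4%, 23.5% and 26.8%. All 3 lay above them in 103 genes. Among the 8730 genes this was so for 5.73%. The 150 were chosen for values low in pituitary and ovary against the hypothalamus, and the 8730 were not. The sets also differ in level, so these shares do not test the choice. The 50 genes with the largest gaps held 44 of the 103, the next 50 held 32 and the last 50 held 27. In that order the highest pituitary or ovary value had medians of 3.23, 4.08 and 7.74 FPKM. The mean of HEP 3 and LEP 4 hypothalami had medians of 279, 72.3 and 72.3 FPKM. The ranking used these values, so nothing is read from the order.

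Similarity among the hypothalamus libraries was described by Pearson's r across the 150 genes, which all come from the same libraries and are not independent. HEP 3 and LEP 4 gave r = 0.944, and 0.963 across the 8730 genes. HEP 1 gave 0.732 with LEP 5 and 0.660 with LEP 6, and LEP 5 gave 0.614 with LEP 6. Across the 8730 genes these last 3 pairs gave 0.452, 0.428 and 0.441. The wider set holds more genes of low level, whose part in these r values was not tested. Which library was highest also differed between genes. HEP 3 was highest in 58 of the 150 genes (38.7%), against 37.4% of the 8730, and LEP 6 in 46 (30.7%), against 23.6%. LEP 5 was highest in 28 (18.7%), against 18.7%, HEP 1 in 10 (6.67%), against 16.1%, and LEP 4 in 8 (5.33%), against 4.20%. For HEP 3, LEP 5 and LEP 4 the shares were thus near those of the wider set.

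Whether the 150 genes differed with egg production was asked in each tissue by a limma fit of HEP against LEP over all genes with a mean of at least 1 FPKM. P values were adjusted by the Benjamini-Hochberg method, with a threshold of 0.05. The gap was computed from 1 HEP and 1 LEP hypothalamus, so the contrast of HEP with LEP was not itself the rule. The same libraries enter this contrast, as 1 of 2 HEP and 1 of 3 LEP hypothalami. The genes were chosen for high values in them. The hypothalamus differences and their signs, here and between tissues, are therefore not independent of the choice. How far the choice moved them was not tested. The labels name separate hens. In pituitary and ovary the p values measure the spread between these hens, moderated over genes. In the hypothalamus the standard errors came from the trend of spread against level alone, and the p values from a normal distribution, so they do not measure the spread of a gene's own libraries.

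In the hypothalamus all 150 genes were tested and none passed with limma. Over all genes tested 20 of 10703 passed (0.187%), 0.0467% as higher and 0.14% as lower in HEP. An unadjusted p under 0.05 was reached by 8 of the 150 (5.33%), 2 higher and 6 lower in HEP, against 3.12% of all genes tested. In each of the 6 lower genes HEP 1 was the lowest hypothalamus library, at 0 to 11.5 FPKM, and HEP 3 lay above LEP 4. A library at 0 was found in 3 of the 8 genes. Among the 150 genes the HEP minus LEP difference was positive in 86 and negative in 64, with a median of 0.14, against 0.40 over all genes tested. After median-ratio scaling it was positive in 70 and negative in 80. Without HEP 3 it was positive in 54 and negative in 95 (median -0.36, against -0.88 over all genes tested), and without HEP 1 positive in 112 and negative in 38 (median 0.76, against 1.19). The typical standard error was large, with a median of 1.05 on the log2 scale. HEP and LEP libraries did not overlap in 12 of the 150 genes (8%), against 13.8% of all genes tested. Of the 12, 11 were higher in HEP, and this split was not computed over all genes. HEP 3 lay above LEP 4 in 88.7% of the 8730 genes, and in such a gene HEP cannot lie wholly below LEP. The split is therefore not read as a trait of the set.

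**Figure D4:**
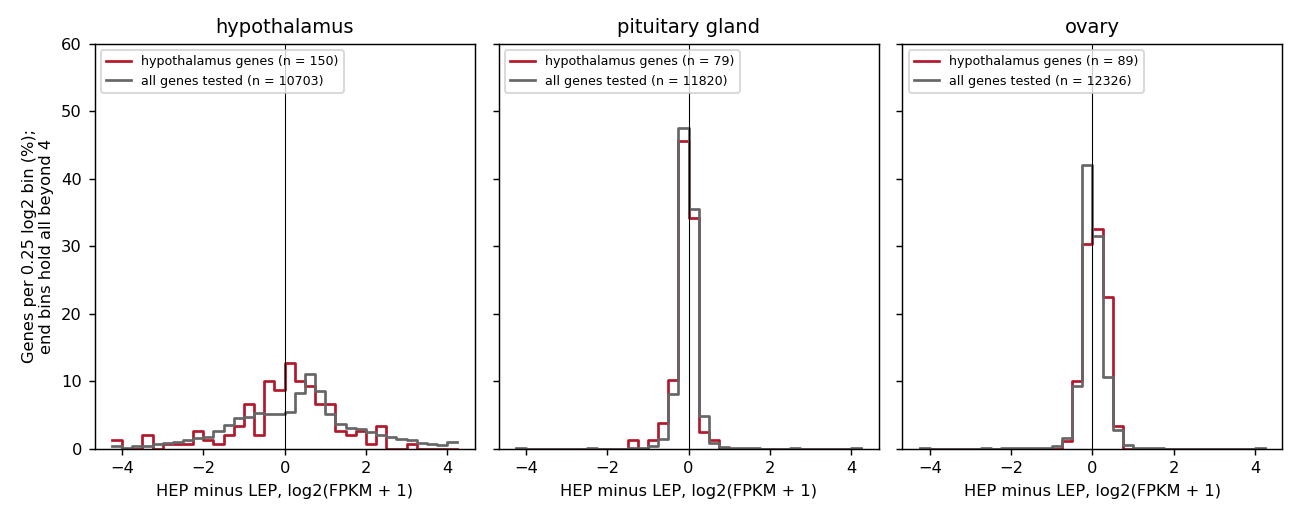
Each panel shows the share of genes per bin of the HEP minus LEP difference in log2(FPKM + 1), for the hypothalamus genes tested in that tissue (red) and for all genes tested (grey). The hypothalamus differences are broad, from -4.15 to 3.03 for the 150 genes, and those of pituitary and ovary lie close to 0.

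ENSGALG00000023793 came nearest to the threshold. It stood at 0.143 and 71.1 FPKM in HEP 1 and HEP 3 hypothalami, against 56.8, 168 and 426 FPKM in LEP 4, LEP 5 and LEP 6. HEP 1 is far below the rest, and HEP 3 lies above LEP 4, so the groups overlap. The log2 difference was -4.15 (SE 1.19, limma adjusted p = 0.159). Without HEP 3 it was -7.14 (limma adjusted p = 0.00129). That value compares the single library HEP 1 with the LEP libraries, and HEP 1 is assumed to vary as they do. Without HEP 1, LEP 5 and LEP 6 it was 0.32 (limma adjusted p = 0.826), with 1 library on each side and the spread taken from the other groups.

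ENSGALG00000012989 stood at 11.5 and 576 FPKM in HEP 1 and HEP 3 hypothalami, against 372, 368 and 1424 FPKM in LEP 4, LEP 5 and LEP 6. Again HEP 1 alone is low and the groups overlap. The log2 difference was -2.78 (SE 0.88, limma adjusted p = 0.355). Without HEP 3, where HEP 1 again stands alone, it was -5.54 (limma adjusted p = 0.00235), and without HEP 1, LEP 5 and LEP 6 it was 0.63 (limma adjusted p = 0.741).

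On the other side, ENSGALG00000010875 stood at 209 and 319 FPKM in HEP 1 and HEP 3 hypothalami. In LEP 4, LEP 5 and LEP 6 it stood at 239, 41.5 and 14.2 FPKM, so that LEP 4 lies between the HEP libraries (log2 difference 2.27, SE 1.02, limma adjusted p = 0.979). ENSGALG00000006217 stood at 748 and 780 FPKM in HEP 1 and HEP 3, against 472, 139 and 195 FPKM in LEP 4, LEP 5 and LEP 6. Its groups do not overlap, and the difference did not pass (log2 difference 1.70, SE 0.86, limma adjusted p = 0.979).

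**Figure D5:**
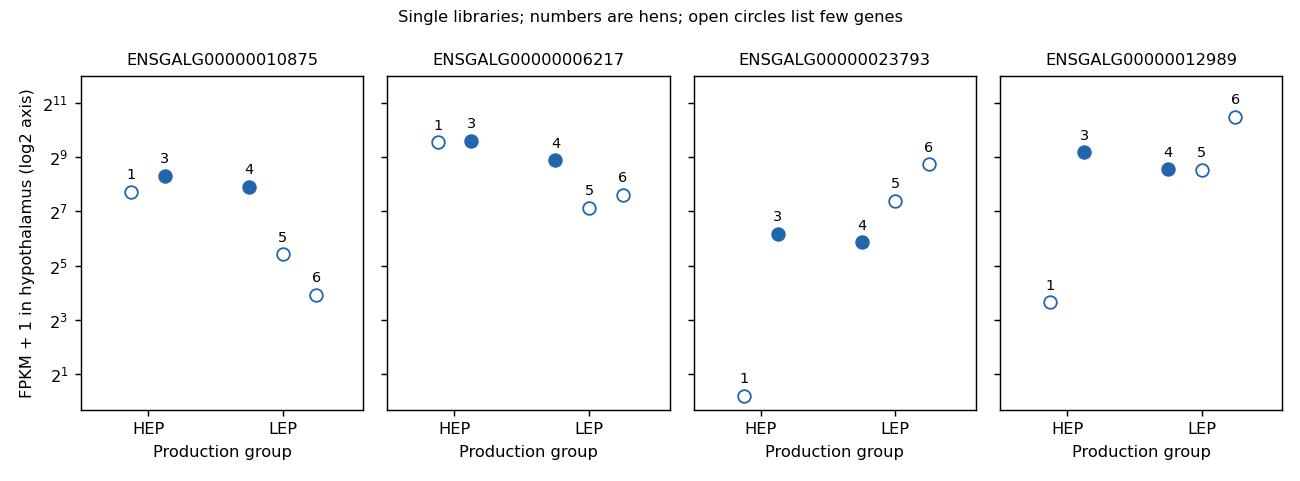
Points are the FPKM plus 1 of single hypothalamus libraries, HEP left and LEP right, on a log2 axis, for the 2 genes with the lowest p on either side, with hen numbers beside the points and open circles for the 3 libraries that list few genes. HEP and LEP overlap in 3 of these 4 genes, and the filled circles, HEP 3 and LEP 4, lie near each other in each.

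The calls in the hypothalamus moved with single libraries. Without HEP 3, 3 of 149 genes tested passed as lower in HEP and none as higher, while 0.852% of all 9973 genes tested passed in either direction. Without LEP 5 a single gene of the set passed, as lower, with 0.324% of all 10790 genes, and without LEP 6 a single gene, also lower, with 0.231% of all 10826. The gene called without LEP 5 was ENSGALG00000020707 (log2 difference -4.92, limma adjusted p = 0.0130), and the gene called without LEP 6 was ENSGALG00000026672 (log2 difference -4.01, limma adjusted p = 0.0109). Both were chosen for mention after their values were seen. For ENSGALG00000020707, HEP 1 and HEP 3 had 0 and 81.4 FPKM, and LEP 4, LEP 5 and LEP 6 had 64.6, 0 and 1144 FPKM. LEP 6 alone is high there, HEP 3 lies above LEP 4, and the library left out is the LEP library at 0. ENSGALG00000026672 stood at 0 and 302 FPKM in HEP 1 and HEP 3 and at 260, 303 and 3.99 FPKM in LEP 4, LEP 5 and LEP 6.

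In the pituitary 79 of the 150 genes passed the filter of 1 FPKM and were tested, and none passed the threshold with limma (0% of 11820 genes passed). An unadjusted p under 0.05 was reached by 4 genes (5.06%), all lower in HEP, against 2.06% of all genes tested. The difference was positive in 30 genes and negative in 49, with a median of -0.05, against -0.03 over all genes tested. This balance turned without LEP 6, to 46 positive and 35 negative (median 0.03, against 0.06), and without HEP 2, to 43 and 39 (median 0.01, against 0.01). HEP and LEP pituitaries did not overlap in 3 of the 79 genes (3.80%), against 5.14% of all genes tested.

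ENSGALG00000028928 had the lowest p in the pituitary. It stood at 16.1, 13.8 and 17.2 FPKM in HEP 1, HEP 2 and HEP 3 pituitaries, against 22.8, 22.6 and 29.1 FPKM in LEP 4, LEP 5 and LEP 6. The 3 HEP values all lie below the 3 LEP values (log2 difference -0.63, SE 0.17, limma adjusted p = 1.00). ENSGALG00000003286 was next, at 1.72, 0.517 and 1.71 FPKM in the HEP hens, against 2.82, 2.03 and 3.36 FPKM in the LEP hens, again without overlap (log2 difference -0.73, SE 0.29, limma adjusted p = 1.00).

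Among genes with a positive difference in the pituitary, ENSGALG00000000909 stood at 1.23, 1.90 and 2.61 FPKM in HEP 1, HEP 2 and HEP 3. It stood at 1.58, 1.43 and 0.190 FPKM in LEP 4, LEP 5 and LEP 6, where LEP 6 alone is low (log2 difference 0.55, SE 0.34, limma adjusted p = 1.00). In the hypothalamus the same gene was at 2215 and 1387 FPKM in HEP 1 and HEP 3 and at 1508, 8543 and 1182 FPKM in LEP 4, LEP 5 and LEP 6. ENSGALG00000015909 stood at 10.3, 11.5 and 15.9 FPKM in HEP pituitaries, against 9.98, 8.69 and 11.9 FPKM in LEP pituitaries, with overlap (log2 difference 0.27, SE 0.20, limma adjusted p = 1.00).

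In the ovary 89 of the 150 genes were tested and none passed with limma. Over all genes tested 4 of 12326 passed (0.0325%), 0.0243% as higher and 0.00811% as lower in HEP. An unadjusted p under 0.05 was reached by 1 gene (1.12%), against 1.4% of all genes tested. The difference was positive in 52 genes and negative in 37, with a median of 0.05, against -0.02 over all genes tested. HEP and LEP ovaries did not overlap in 9 of the 89 genes (10.1%), against 14.2% of all genes tested. Without LEP 5 the sign of the balance turned, with 41 genes positive and 54 negative and a median of -0.05, against -0.05 over all genes tested.

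ENSGALG00000019663 was the gene with that p. It stood at 16.4 and 17.1 FPKM in HEP 1 and HEP 3 ovaries, against 25.4, 26.2 and 20.6 FPKM in LEP 4, LEP 5 and LEP 6, without overlap (log2 difference -0.49, SE 0.18, limma adjusted p = 1.00). ENSGALG00000003286, low in HEP pituitaries, had 0.929 and 1.40 FPKM in HEP ovaries, against 1.47, 2.01 and 3.50 FPKM in LEP ovaries (log2 difference -0.58, SE 0.34, limma adjusted p = 1.00). In the hypothalamus its groups overlapped, with 16.3 and 92.7 FPKM in the HEP hens, against 68.6, 13.1 and 29.3 FPKM in the LEP hens.

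Genes with a positive difference in the ovary were led by ENSGALG00000016675. It stood at 8.14 and 6.44 FPKM in HEP 1 and HEP 3 ovaries and at 5.72, 4.91 and 3.85 FPKM in LEP 4, LEP 5 and LEP 6, without overlap (log2 difference 0.51, SE 0.24, limma adjusted p = 1.00). ENSGALG00000011555 stood at 64.3 and 55.7 FPKM in HEP ovaries, against 35.7, 38.3 and 58.3 FPKM in LEP ovaries, with overlap (log2 difference 0.47, SE 0.24, limma adjusted p = 1.00).

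Whether the HEP effect differed between tissues was tested as the difference of the HEP minus LEP differences. The limma fit held all 16 libraries, with 1 mean per group. It gives each gene 1 spread shared by all tissues. In the fits of single tissues the median standard error was 1.05 in the hypothalamus, 0.24 in the pituitary and 0.31 in the ovary. The p values between tissues, also with a hen left out, therefore do not measure the spread of the hypothalamus by itself. For hypothalamus minus pituitary none of the 150 genes passed, while 3 of 12648 genes passed overall (0.0237%, with 0.0158% higher and 0.00791% lower). An unadjusted p under 0.05 was reached by 7 of the 150, against 9.26% of all genes tested. For hypothalamus minus ovary none passed either, while 2 of 12648 passed overall (0.0158%), and 5 of the 150 had an unadjusted p under 0.05, against 8.13% of all genes tested. With hen as a block none of the 150 passed in either contrast, while 2 of 12648 genes passed overall in each. An unadjusted p under 0.05 was then reached by 4 and 2 of the 150, against 701 and 746 of the 12648 genes tested.

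These counts moved with hens 3 and 4. Without hen 3, 10 of 145 genes passed as lower for hypothalamus minus pituitary, and 9 of 145 for hypothalamus minus ovary. Without hen 4, 3 and 2 genes passed as higher. ENSGALG00000010875 was among them in both contrasts (log2 difference 3.26, limma adjusted p = 0.0382 against pituitary, and 3.52, limma adjusted p = 0.0349 against ovary). So was ENSGALG00000010722, chosen after its values were seen (4.37, limma adjusted p = 0.0100, and 4.19, limma adjusted p = 0.0170). ENSGALG00000006217 was among them against pituitary alone (log2 difference 2.59, limma adjusted p = 0.0495). Without hen 4 the LEP hypothalamus is LEP 5 and LEP 6, both libraries that list few genes. ENSGALG00000010722 had 0 and 0.887 FPKM in them. Over all genes tested 752 (5.98%) and 530 (4.22%) passed without hen 3, and 739 (5.86%) and 679 (5.39%) without hen 4. Without hen 3 the HEP hypothalamus and the HEP ovary are each the single library of HEP 1, assumed to vary as the other groups do. Hens 3 and 4 are those with the hypothalamus libraries that list most genes.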

How the data were processed

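Total RNA of the 3 tissues was extracted with a Qiagen RNeasy kit, per the labels' protocols, and read on an Illumina HiSeq instrument, per the series design. The authors deposited FPKM values, 1 column per library, which carry the authors' division by length and library size. How reads were aligned and quantified, and against which genome build, is not given in the sources used here. Ratios of values under 0.3 FPKM between libraries of a tissue were searched for whole reads. At most 20.0% fell within 0.05 (log2) of the commonest ratio, so reads could not be recovered.

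Members followed the rule given in the report. Members, lists and tests were chosen with earlier results of these data known. Lists of genes by symbol (neuropeptides, receptors, cell type markers) could not be applied, since no identifier has a symbol. For the same reason at most 2 identifiers per comparison and direction were named: the largest gaps and levels, the lowest unadjusted p, and the border. Others are marked in the text as chosen after their values were seen.

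HEP and LEP were compared with limma 3.58.1 in R 4.3.3 (empirical Bayes with trend) on log2(FPKM + 1), which understates changes of low genes, for genes with a mean of at least 1 FPKM, two-sided, adjusted over all genes tested. The fits were tried on simulated data, drawn from a normal distribution with 1 spread per gene. Those data did not copy the 3 hypothalamus libraries that list few genes, and no result here rests on them. Each hen has the same number and code in its tissues' labels, so hen was tried as a block where tissues were compared. Deviations from group means correlated across 12648 genes between hypothalamus and pituitary of a hen with r from -0.040 to 0.047, and between hypothalamus and ovary with r from -0.065 to 0.0036. Alternatives were other pseudocounts, filters, scalings, variance models and left-out libraries.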

Additional observations from a re-analysis of the deposited data

Results flagged for a closer look

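In 17 genes named in the text, each tissue was searched for a library standing far from the others, by Dixon's ratio on log2(FPKM + 1) at its 95% limit. Of 48 sets of libraries, 5 held one. Most of the genes were named for their values in these same libraries. The count of 5 therefore cannot be set against a rate given by chance, and nothing is read from it. ENSGALG00000000112 stood at 51780 FPKM in the LEP 6 hypothalamus, against 11639 to 15979 FPKM in the other 4 hypothalami. ENSGALG00000012989 stood at 11.5 FPKM in the HEP 1 hypothalamus, against 368 to 1424 FPKM in the others. ENSGALG00000005413 was listed at 0 in the LEP 5 hypothalamus, against 13.9 to 40.5 FPKM in the others. The same gene stood at 0.369 FPKM in the LEP 6 pituitary, against 0 to 0.0879 FPKM in the other 5. ENSGALG00000006217 stood at 1.83 FPKM in the LEP 6 pituitary, against 0.497 to 0.873 FPKM in the others. The 3 hypothalamus values come from libraries that list few genes, whose part in them was not tested.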

How the results depend on the processing

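Of the 150 genes, 124 stayed in the set with a pseudocount of 0.1 in the rule, 101 with all 5 hypothalamus libraries, 136 without LEP 4, 130 without HEP 3, 143 after median-ratio scaling and 147 to 149 without any 1 pituitary or ovary library. The number above 0 in HEP 1, LEP 5 and LEP 6 was 96 to 124 under these and other rules, apart from 150 where the rule itself required it, and 107 genes reached 1 FPKM in all 3 (a limit added after the data were seen). With limma no gene of the set passed between HEP and LEP in pituitary or ovary under any alternative. In the hypothalamus 1 passed with a pseudocount of 0.1 (ENSGALG00000023793, log2 difference -5.26, limma adjusted p = 0.0268), with 0.383% of all genes tested. With LEP 4, LEP 5 or LEP 6 left out 0 or 1 passed. With HEP 1 or HEP 3 left out a single HEP library remains. Without the 3 libraries that list few genes 1 HEP and 1 LEP library remain, and their spread is taken from the other groups. The 2 that remain are HEP 3 and LEP 4, whose values chose the genes, so calls from that fit are not read. Without those 3 libraries the differences of ENSGALG00000023793 and ENSGALG00000012989 turned to 0.32 and 0.63. Median-ratio scaling moved the hypothalamus median of all genes tested from 0.40 to 0.19 and that of the 150 from 0.14 to -0.06 (70 positive and 80 negative), so the balance of signs depends on scaling. For hypothalamus minus pituitary and minus ovary, 0 passed with hen as a block, 2 passed in each without the 3 libraries, and 0 to 10 and 0 to 9 with a hen left out. The cause of these moves was not tested. Without the 3 libraries both of these contrasts also rest on HEP 3 and LEP 4 in the hypothalamus, with 1 library on each side. Those values chose the genes, so the calls between tissues from that fit are not read either. Unknown depth limits all values, and the lowest most.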
